A study of Mus musculus with 4 samples.

Results

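Sterol and fatty acid synthesis genes under SREBP control were followed in the raw count table of V6.5 mouse embryonic stem cells, as a list of 38 genes chosen by name and role and not by a threshold on any value. The list was chosen with earlier results of these data known. Its shares beside those of all genes are therefore a description and not independent support. All 38 were found among the 45706 genes of the table, and all passed the filter on low counts among 18005 genes tested. By role, 19 encode mevalonate and sterol steps, 7 fatty acid steps, 5 regulators of SREBP, and 7 proteins of sterol uptake, transport and efflux.

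The study set 2 libraries taken after 24 h of doxycycline, labelled as KLF knockout, against 2 libraries at 0 h, labelled KLF WT. V6.5 cells are a mouse embryonic stem cell line, and the stable lines carried a lentiviral vector in which doxycycline turns on Cas9 and GFP, with rtTA and puromycin resistance from the same vector. Per the labels the guides cut Klf4 by itself or Klf2, Klf4 and Klf5 together. The 24 h titles name a KLF4 knockout while the titles of all 4 libraries carry TKO, so the guides in each library are uncertain. Clones were picked by hand and chosen by Western blot, and the sources used here do not say whether the libraries share a clone. All cells grew on irradiated feeder cells with 15% serum and 1000 U/ml LIF, and all 4 are labelled as cultured in 2i, which is 1 µM of an inhibitor of MEK and 3 µM of one of GSK3. The labels call A and B of a group biological replicates. Doxycycline, Cas9 cutting, loss of KLF protein, time in culture and any difference between clones cannot be told apart in the 24 h against 0 h contrast, and in bulk RNA fewer cells of a type and less RNA per cell cannot be told apart either.

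SREBPs are transcription factors made as membrane proteins of the endoplasmic reticulum. When membrane cholesterol is low, Scap escorts them to the Golgi, where proteases free the active domain, and when cholesterol is high, the Insig proteins hold Scap back. SREBP2 mainly drives sterol synthesis genes and SREBP1 mainly fatty acid genes, while oxysterols act through the LXR receptors on efflux genes such as Abca1 and Abcg1. Mouse embryonic stem cells divide fast and make membrane lipid as they grow.

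Promoters are shown for the 5 genes lower at 24 h in the test below for which a promoter was matched. All 5 hold the CCAAT box, the site of NF-Y, a factor known to work beside SREBPs. Most sterol step genes that did not pass the test hold it too. Each is a RefSeq window on GRCm38.p6, 250 bases before to 50 after an annotated start, read 5′ to 3′ on the gene's strand. Capitals mark the CCAAT box on either strand and, in Hmgcs1, the sterol regulatory element core TCACNCCAC. The windows are chr13:119690101-119690400 (plus strand) for Hmgcs1, chr8:122443373-122443672 (minus) for Mvd, chrX:8193463-8193762 (minus) for Ebp, chr7:143829964-143830263 (plus, the one of 3 Dhcr7 windows with a CCAAT box) and chr5:28071162-28071461 (plus) for Insig1.
Hmgcs1: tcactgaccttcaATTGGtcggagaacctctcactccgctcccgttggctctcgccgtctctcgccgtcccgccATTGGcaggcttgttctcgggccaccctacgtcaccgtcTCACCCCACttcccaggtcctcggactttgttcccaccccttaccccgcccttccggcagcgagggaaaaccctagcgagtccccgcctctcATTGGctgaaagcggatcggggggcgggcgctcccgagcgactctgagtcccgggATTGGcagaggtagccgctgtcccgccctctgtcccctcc
Mvd: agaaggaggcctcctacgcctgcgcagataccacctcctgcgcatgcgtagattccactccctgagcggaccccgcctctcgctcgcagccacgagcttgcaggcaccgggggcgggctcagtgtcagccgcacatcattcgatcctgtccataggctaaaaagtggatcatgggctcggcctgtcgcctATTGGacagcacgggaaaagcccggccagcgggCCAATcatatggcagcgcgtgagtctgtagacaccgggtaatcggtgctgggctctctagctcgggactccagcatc
Ebp: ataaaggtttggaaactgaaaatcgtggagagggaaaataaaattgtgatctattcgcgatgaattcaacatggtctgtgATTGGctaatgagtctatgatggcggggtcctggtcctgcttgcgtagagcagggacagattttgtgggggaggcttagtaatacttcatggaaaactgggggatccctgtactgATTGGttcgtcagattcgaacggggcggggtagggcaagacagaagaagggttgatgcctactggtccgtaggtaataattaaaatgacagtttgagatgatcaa
Dhcr7: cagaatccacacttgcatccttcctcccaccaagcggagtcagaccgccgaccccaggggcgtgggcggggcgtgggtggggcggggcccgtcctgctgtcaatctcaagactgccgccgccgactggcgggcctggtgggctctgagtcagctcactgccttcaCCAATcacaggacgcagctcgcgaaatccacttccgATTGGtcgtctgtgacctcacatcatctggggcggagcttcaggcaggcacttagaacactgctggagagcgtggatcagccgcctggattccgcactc
Insig1: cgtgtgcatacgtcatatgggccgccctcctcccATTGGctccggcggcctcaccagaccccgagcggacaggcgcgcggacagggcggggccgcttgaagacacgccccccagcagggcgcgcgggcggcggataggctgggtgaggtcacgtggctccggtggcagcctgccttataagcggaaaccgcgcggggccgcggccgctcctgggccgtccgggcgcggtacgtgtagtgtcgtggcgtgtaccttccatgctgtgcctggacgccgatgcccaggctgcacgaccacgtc
CCAAT was in 15 of 19 promoters of sterol step genes (78.9%) and in 23 of 37 promoters of the whole list (62.2%), against 32 of 55 promoters of the other lipid genes listed (58.2%), 37.6% of the promoters of genes tested and 37.4% of all promoters in the table. For the genes of the list lower in the test, CCAAT was in 5 of 7 promoters (71.4%), a share below that of the sterol step genes. RefSeq windows were matched for 29 of the 38 genes, some with several starts. Fdps, Fdft1, Sqle, Scd1, Scd2, Fads1, Npc1, Stard4 and Abcg1 are named without a window. A match is a run of letters, searched on both strands, and binding was not measured in these libraries.

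Library 0 h A differed from the rest by GC content, and so did the list's values in it. Across the 38 genes, the log2 difference of 0 h A minus 0 h B correlated with GC content at r = 0.856, and across 17927 genes tested at r = 0.532, where the genes share the same libraries and are not independent. The same correlation of 24 h A minus 24 h B over the list was 0.263. The 6 genes that differed by more than 0.5 on the log2 scale between the 0 h libraries were Scap (0.73), Srebf1 (0.69), Nr1h2 (0.63), Mvk (0.60), Fasn (0.56) and Srebf2 (0.53), all higher in A. Between the 24 h libraries none of the 38 did, the range being -0.14 to 0.40. The list's median GC content was 49.5%, against 49.9% over all genes tested.

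**Figure D1:**
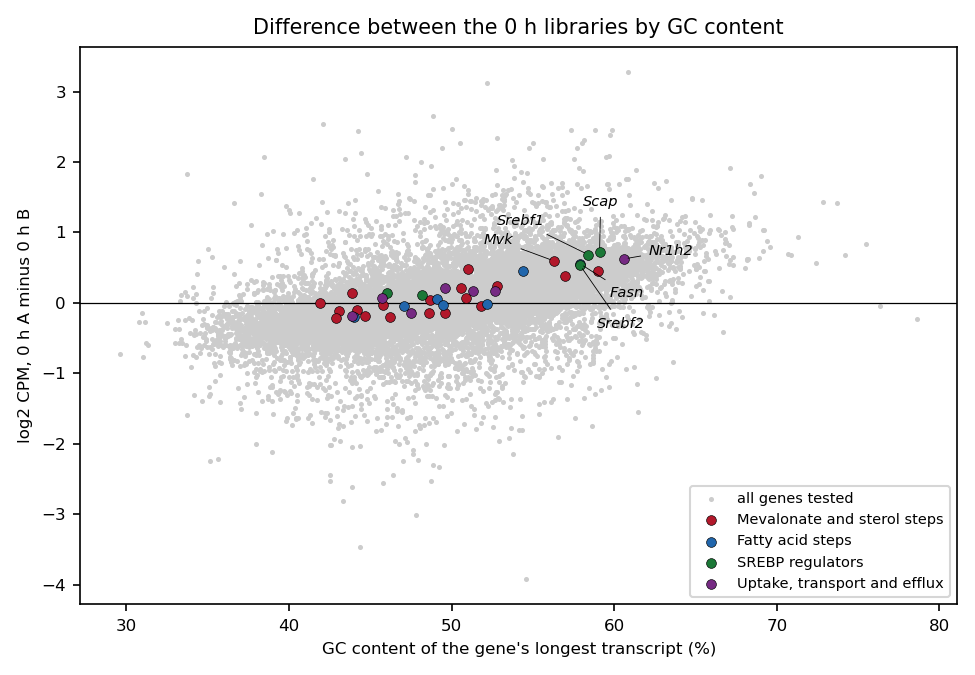
Log2 difference between the 0 h libraries (A minus B) against the GC content of each gene's longest transcript, with the list coloured by role over all genes tested in grey. The labelled genes of high GC content lie between 0.53 and 0.73, while most of the list lies near 0.

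At 24 h the list leaned to lower levels. Of the 38 genes, 9 fell and 1 rose past the test (the quasi-likelihood test of edgeR, Benjamini-Hochberg adjusted over all genes tested, adjusted p under 0.05), and 28 did not pass. Over all genes tested, 6.8% were called, 2.65% lower and 4.15% higher. The genes that fell were Hmgcs1, Mvd, Fdps, Fdft1, Ebp and Dhcr7 of the sterol steps, Scd1 and Scd2 of the fatty acid steps, and the regulator Insig1. The gene that rose was Abcg1, a sterol exporter.

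The size of the changes was modest and mostly in the same direction. The log2 difference (log2 fold change, 24 h minus 0 h) was negative for 35 of 38 genes, against 50.8% of all genes tested. Its median was -0.38, against -0.01 over all genes tested. Both 24 h libraries lay below both 0 h libraries for 30 genes (29.5% of all genes tested did so), both lay above for 2 (29.3%), and the groups overlapped for 6. At an unadjusted p under 0.05 in edgeR's test, 23 genes were lower and 1 higher, against 12.6% and 13.2% of all genes tested.

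**Figure D2:**
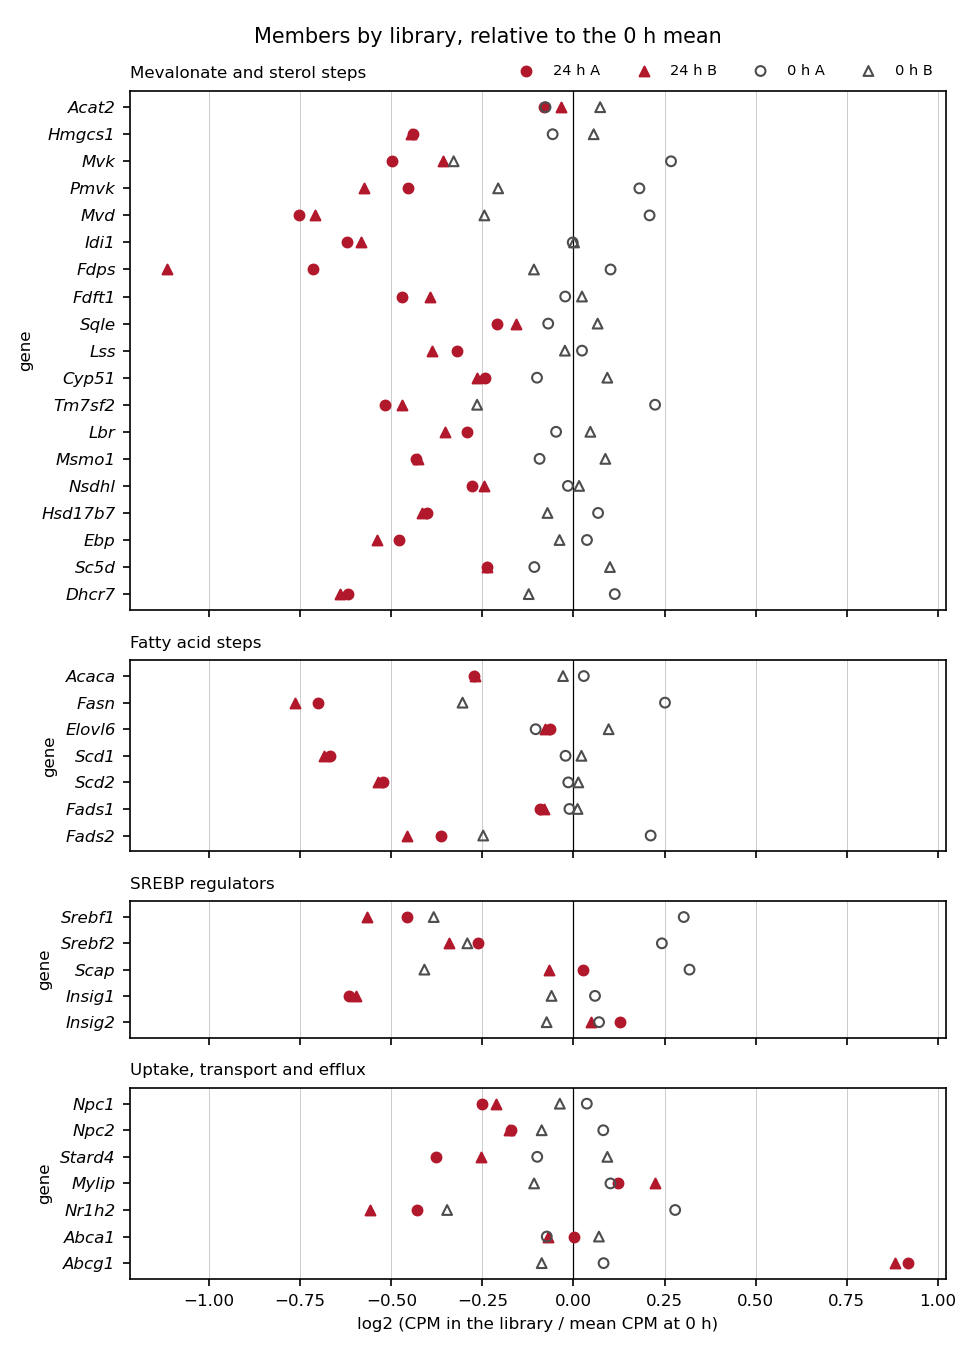
Each point is 1 library's level (CPM, the share of the library's TMM-scaled total) relative to the mean of the 0 h libraries on a log2 scale, with 24 h filled and 0 h open, circles for replicate A and triangles for B. For 30 of the 38 genes both 24 h points lie left of both 0 h points, and Abcg1 stands alone at the far right.

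Summed over the list, levels in TPM (counts per length of annotated exons, scaled to a common total) were 2940 and 2854 in the 24 h libraries A and B, and 3920 and 3683 in the 0 h libraries. The 24 h mean was 76.2% of the 0 h mean, with no overlap between the groups. Fatty acid steps summed to 1227 and 1187 TPM at 24 h, and to 1676 and 1641 TPM at 0 h. Sterol steps summed to 1111 and 1090 TPM at 24 h, and to 1440 and 1409 TPM at 0 h. Regulators summed to 340.1 and 321 TPM at 24 h, and to 481 and 359 TPM at 0 h, the 0 h libraries being far apart. Uptake, transport and efflux genes summed to 262 and 256 TPM at 24 h, and to 322 and 274 TPM at 0 h.

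Levels at 0 h ran from 837 ± 15.5 TPM for Scd2 (mean ± SD, n = 2) to 2.32 ± 0.0158 TPM for Idi1. Scd2 stood above 99.3% of the genes tested, Scd1 above 97.5%, Hmgcs1 above 96.7% and Srebf2 above 95.2%. At the low end, Abcg1 was at 4.03 ± 0.314 TPM, above 33.2% of the genes tested, and Acaca at 5.55 ± 0.128 TPM, above 37.7%. The rank of Acaca rests on 17074 bases of annotated exons, and it had 32.0 and 30.8 CPM in the 0 h libraries A and B. Shared sequence, described below, also limits the counts of Acaca and Idi1.

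**Figure D3:**
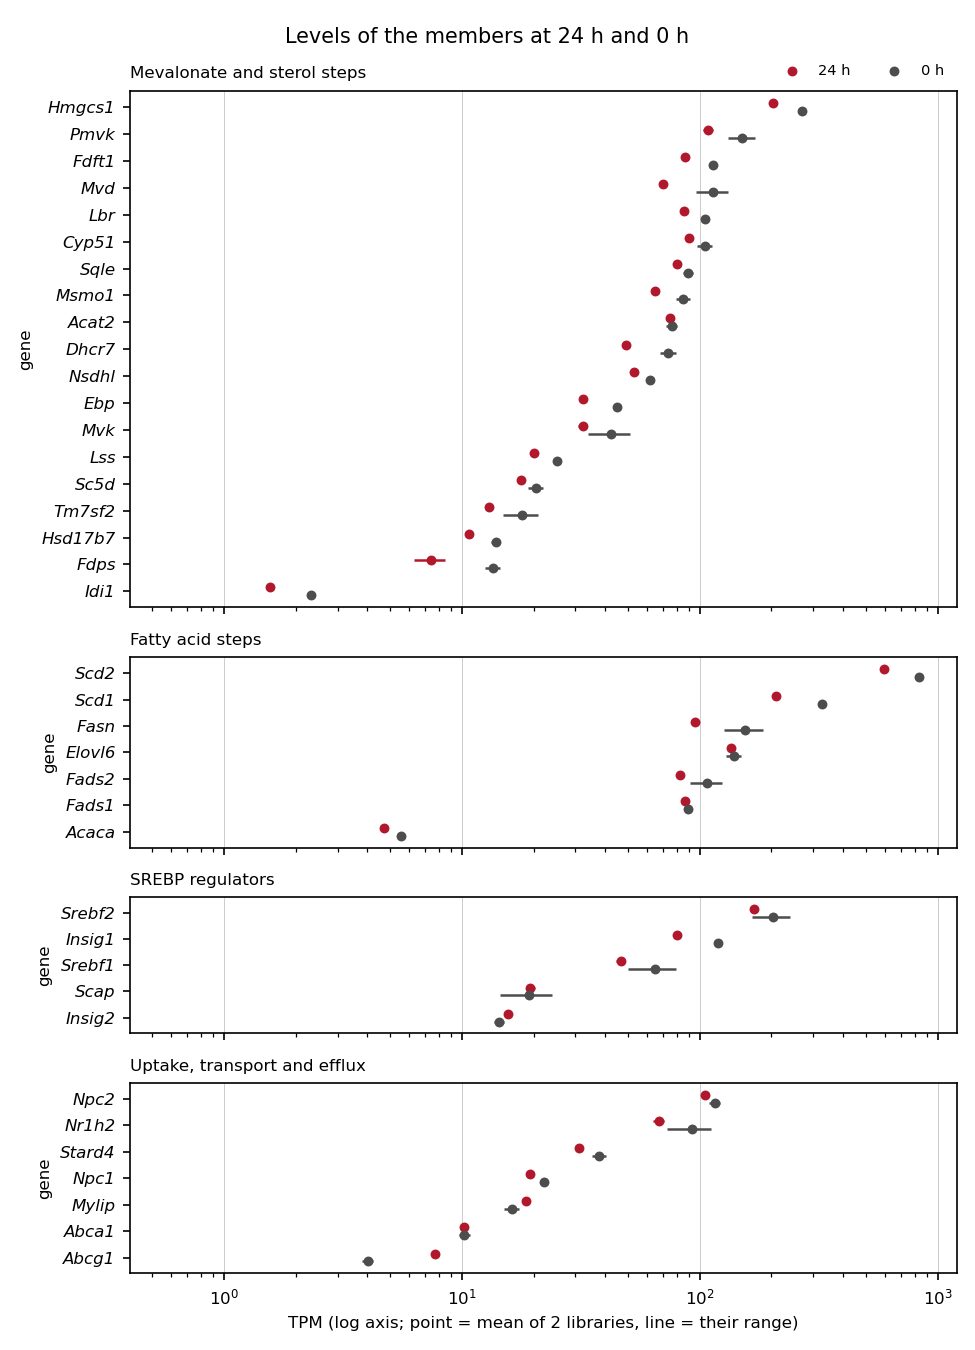
Level of each gene in TPM on a log axis at 24 h (red) and 0 h (grey), ordered by the 0 h level within each role, where points are means of 2 libraries and lines their range. Scd2 is the highest at both times, and the wide grey lines belong to genes such as Fasn, Srebf1, Srebf2, Scap and Nr1h2, whose 0 h libraries were far apart.

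The mevalonate and sterol steps all lay on the lower side. All 19 had a negative log2 difference (50.8% of all genes tested did), with a median of -0.43. Past the test, 6 fell, against 2.65% of all genes tested. Both 24 h libraries lay below both 0 h libraries in 18, against 29.5% of all genes tested.

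Hmgcs1 (chromosome 13, 119690379 to 119708260), the synthase that makes HMG-CoA in the cytosol, was the most abundant sterol step per length. It had 302 and 299.9 CPM in the 24 h libraries A and B, against 393 and 425 CPM in the 0 h libraries. Both 24 h libraries were lower, and the log2 difference was -0.44 (SE 0.10) and the Benjamini-Hochberg adjusted p of edgeR's test 0.0426, the same measure as every adjusted p given after it. Mvd (chromosome 8, 122433601 to 122443422), which decarboxylates mevalonate diphosphate, had 41.6 and 42.9 CPM at 24 h, against 81.0 and 59.2 CPM at 0 h. The 24 h libraries were close together and below both 0 h libraries, which were far apart, and the log2 difference was -0.73 (SE 0.16, edgeR adjusted p = 0.0425).

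Fdps (chromosome 3, 89093588 to 89101959), the farnesyl diphosphate synthase, had the lowest log2 difference of the list. It was at 11.4 and 8.65 CPM in the 24 h libraries, against 20.1 and 17.4 CPM in the 0 h libraries, and the groups did not overlap. The log2 difference was -0.90 (SE 0.18, edgeR adjusted p = 0.0319). Fdft1 (chromosome 14, 63145150 to 63179578), the squalene synthase that commits farnesyl diphosphate to sterols, was at 115 and 122 CPM at 24 h, against 157 and 162 CPM at 0 h. The replicates of each group lay close together, with a log2 difference of -0.43 (SE 0.10, edgeR adjusted p = 0.0479).

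Counts of some early steps are uncertain because their sequence is shared. Of the 50-base windows of Fdps, 26.2% also occur in other genes, among them the processed pseudogenes Gm3571 (599 and 546 counts at 24 h, against 963 and 852 at 0 h) and Gm5873 (347 and 365 counts at 24 h, against 701 and 512 at 0 h). Of those of Fdft1, 26.5% occur elsewhere, mostly in Ctsb, whose exons overlap it on the other strand, and in the pseudogene Gm6781 (1210 and 1210 counts at 24 h, against 1884 and 1858 at 0 h). Both 24 h libraries were below both 0 h libraries in these 3 pseudogenes too, and from which locus their reads came cannot be told apart here. The shares were 39.1% for Acat2, 30.4% for Acaca, 25.3% for Idi1 and 11.6% for Hmgcs1. Exons of Hmgcs1, Idi1, Lss, Cyp51, Lbr, Srebf1, Scap, Npc1 and Elovl6 overlap a gene on the other strand, those of Fdps and Tm7sf2 a protein-coding gene on the same strand, and the strand setting of the counting is not given in the sources used here.

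Ebp (chromosome X, 8185329 to 8193512), a sterol isomerase late in the path, had 24.6 and 23.6 CPM in the 24 h libraries, against 35.2 and 33.4 CPM in the 0 h libraries. Its groups were apart by far more than their replicates, with a log2 difference of -0.51 (SE 0.12, edgeR adjusted p = 0.0485). Dhcr7 (chromosome 7, 143823145 to 143848410), the reductase of the last step to cholesterol, had 92.5 and 91.1 CPM at 24 h, against 154 and 130.4 CPM at 0 h. Both 24 h libraries were lower, with a log2 difference of -0.63 (SE 0.12, edgeR adjusted p = 0.0267).

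The other 13 sterol steps did not pass the test. Just outside it were Msmo1, a methylsterol oxidase (log2 difference -0.43, edgeR adjusted p = 0.0608), Pmvk, the phosphomevalonate kinase (-0.51, adjusted p = 0.0863), and Lss, the lanosterol synthase (-0.35, adjusted p = 0.0873). Idi1, the isopentenyl diphosphate isomerase, had 1.75 and 1.80 CPM at 24 h and 2.69 CPM in both 0 h libraries, with a log2 difference of -0.60 and an edgeR adjusted p of 0.129. The log2 difference was -0.49 for Tm7sf2 and -0.32 for Lbr, sterol reductases with overlapping roles, -0.43 for the mevalonate kinase Mvk, and -0.41 for Hsd17b7, -0.26 for Nsdhl and -0.24 for Sc5d, which act on sterol intermediates. The demethylase Cyp51 had -0.25 and Sqle, the squalene epoxidase that is a control point of the path, -0.18. Acat2, the cytosolic thiolase at the start, was the one sterol step whose groups overlapped, with 60.6 and 62.7 CPM at 24 h, against 60.8 and 67.5 CPM at 0 h.

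**Figure D4:**
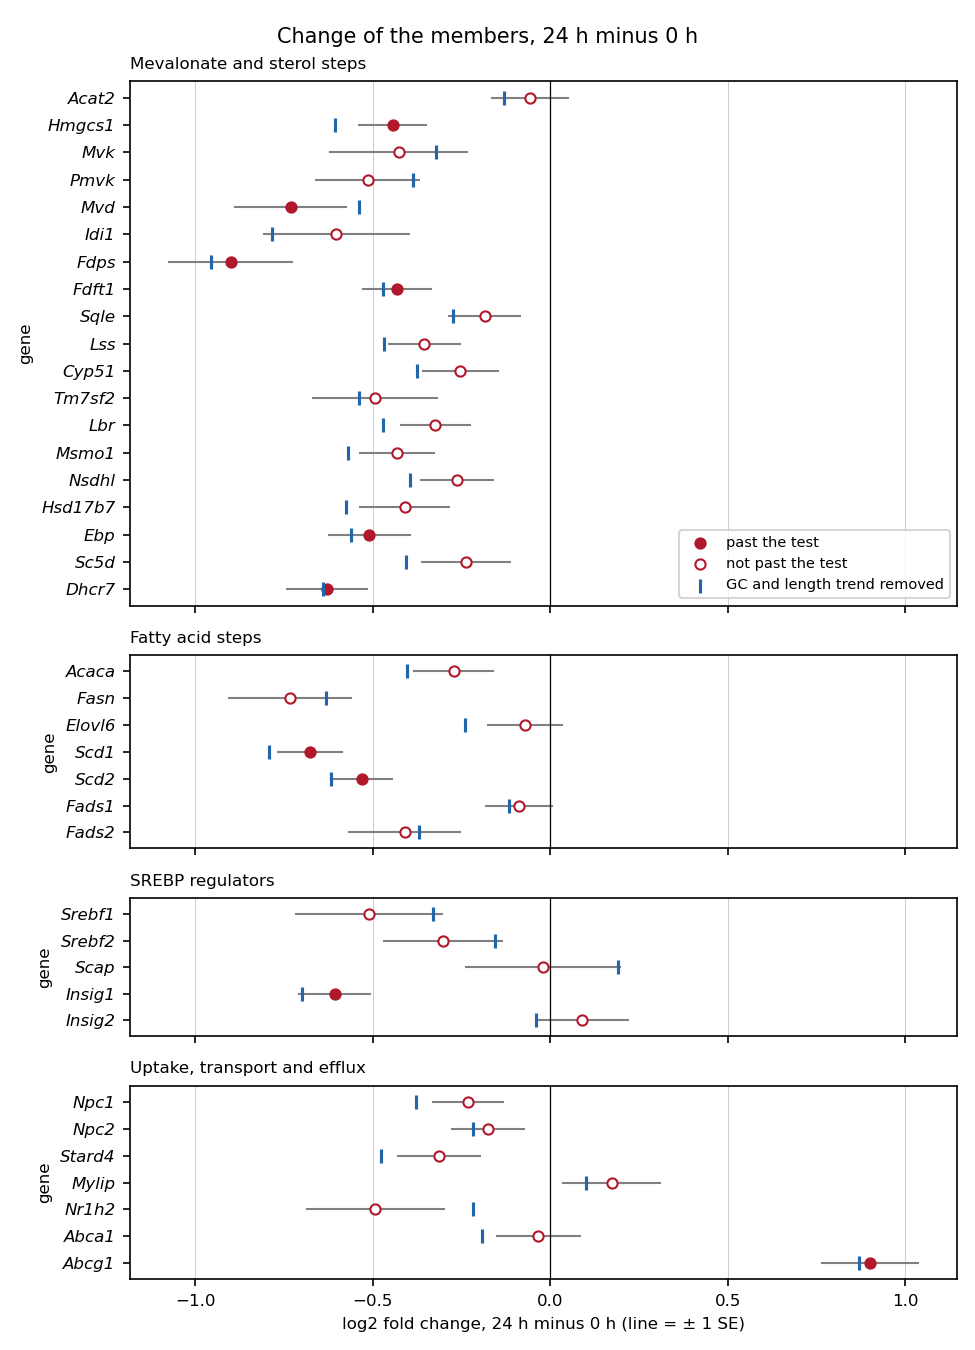
Log2 fold change (24 h minus 0 h) of each gene with its standard error, filled where past edgeR's test at an adjusted p under 0.05, and, as a blue tick, the value with each library's trend on GC content and transcript length removed. All sterol and fatty acid steps lie left of 0 in both fits, and Abcg1 is the gene past the test to the right.

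In the fatty acid steps 2 of 7 genes fell past the test, Scd1 and Scd2, against 2.65% of all genes tested. All 7 had a negative log2 difference (50.8% of all genes tested did), and the median was -0.41. That median was -0.24 without 0 h A, and -0.52 without 0 h B, where Elovl6 turned positive. Scd2 (chromosome 19, 44293674 to 44306864), a stearoyl-CoA desaturase that makes monounsaturated fat, was the most abundant gene of the whole list. It had 1054 and 1043 CPM in the 24 h libraries, against 1499 and 1528 CPM in the 0 h libraries, with replicates close together and the groups well apart. Its log2 difference was -0.53 (SE 0.09, edgeR adjusted p = 0.0193).

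Scd1 (chromosome 19, 44394455 to 44407879), its neighbour and paralogue, had the lowest adjusted p of the list. It was at 331 and 327 CPM in the 24 h libraries, against 518 and 534 CPM in the 0 h libraries, again with close replicates. The log2 difference was -0.68 (SE 0.09, edgeR adjusted p = 0.0115). The ratio of Scd1 to Scd2 in TPM was 0.351 in both 24 h libraries, against 0.386 and 0.39 in the 0 h libraries.

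Fasn, the fatty acid synthase, was at 346 and 331 CPM in the 24 h libraries, against 669 and 455 CPM in the 0 h libraries. Its 0 h libraries were farther from each other than 0 h B was from either 24 h library, and both were above the 24 h libraries (log2 difference -0.73, edgeR adjusted p = 0.0533). Acaca, the acetyl-CoA carboxylase that feeds Fasn, had a log2 difference of -0.27, Fads2, the first desaturase of polyunsaturated fat, -0.41, and Fads1, which acts after it, -0.09. Elovl6, an elongase of saturated chains, overlapped between groups, with 283 and 281 CPM at 24 h, against 276 and 317 CPM at 0 h.

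Among the regulators, 1 of 5 fell, against 2.65% of all genes tested. Insig1 (chromosome 5, 28071363 to 28078662), which retains Scap and is itself a target of SREBPs, had 79.8 and 80.8 CPM in the 24 h libraries, against 127 and 117 CPM in the 0 h libraries. The groups were far apart, with a log2 difference of -0.61 (SE 0.10, edgeR adjusted p = 0.0212). Insig2, its partner in retaining Scap, had 18.0 and 17.0 CPM at 24 h, against 17.3 and 15.6 CPM at 0 h, and its groups overlapped (log2 difference 0.09, adjusted p = 0.708). The ratio of Insig1 to Insig2 in TPM was 4.98 and 5.33 in the 24 h libraries, against 8.27 and 8.42 in the 0 h libraries.

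The genes of the SREBPs themselves and of Scap did not pass the test. Srebf2, which encodes SREBP2, was the most abundant regulator per length, with 402 and 380.3 CPM in the 24 h libraries, against 570.5 and 394 CPM in the 0 h libraries. Its groups overlapped, since 0 h B lay between the 24 h libraries, and the log2 difference was -0.30 (edgeR adjusted p = 0.303). Srebf1, which encodes SREBP1, had 87.7 and 81.3 CPM at 24 h, against 148 and 92.3 CPM at 0 h (log2 difference -0.51, adjusted p = 0.181). Scap had 48.2 and 45.2 CPM at 24 h, against 59.0 and 35.6 CPM at 0 h. The 24 h libraries of Scap sat between the 0 h libraries, and the log2 difference was -0.02 (adjusted p = 0.964).

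Results for the genes of high GC content moved with library 0 h A. With 0 h A left out, Srebf2 had a log2 difference of -0.01, Srebf1 -0.13, Mvk -0.10, Nr1h2 -0.15 and Scap 0.39. With 0 h B left out, Srebf2 had -0.55, Srebf1 -0.82, Mvk -0.70, Nr1h2 -0.78 and Scap -0.34. Fasn stayed negative in both, at -0.43 without 0 h A and -0.99 without 0 h B. So did Fads2 (-0.16 and -0.63), Tm7sf2 (-0.23 and -0.72) and Pmvk (-0.31 and -0.70). Several genes of lower GC content moved the other way, among them Sc5d (-0.34 without 0 h A and -0.13 without 0 h B). Others were Cyp51 (-0.35 and -0.16), Sqle (-0.25 and -0.12) and Elovl6 (-0.17 and 0.03). The median of the 5 regulators was -0.30 with all libraries, -0.01 without 0 h A and -0.55 without 0 h B, and that of the uptake, transport and efflux genes was -0.17, -0.11 and -0.22. In all, 18 of the 38 genes had a log2 difference that moved by more than 1.5 times or changed sign when 1 library was left out. None of the 10 past the test was among them. The test favours genes whose libraries differ little within a group, so the absence of these 10 is not separate support for their calls. All 10 genes past the test kept their call and direction without either 0 h library, and with the GC and length trend of each library removed. Without 0 h A, Insig1 had a log2 difference of -0.55, Scd1 -0.70, Dhcr7 -0.51, Mvd -0.49 and Abcg1 0.99. Mvd, at a GC content of 59%, had -0.945 without 0 h B, and its move without 0 h A fell just short of 1.5 times. Leaving out 1 library leaves its group with no spread of its own, and the fit lends it that of the other group. Over the list, 27 genes were lower and 3 higher without 0 h A (15.8% and 16.5% of all genes tested), and 30 were lower and 1 higher without 0 h B (27% and 23.2%).

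In the fit corrected for GC content and length, 29 of the 38 genes were called lower and 1 higher by edgeR, against 18.5% and 10.4% of all genes tested. The median log2 difference in that fit was -0.40 for the list and -0.07 over all genes tested. Without the correction these medians were -0.38 and -0.01. By role, 17 of the 19 sterol steps, 6 of the 7 fatty acid steps, 2 of the 5 regulators and 4 of the 7 uptake, transport and efflux genes were lower in that fit. Of the 10 calls, 7 were kept with upper-quartile scaling, with library size alone and with limma voom. The calls were lost for Hmgcs1, Fdft1 and Ebp under both scalings, and for Mvd, Fdft1 and Ebp with voom. With no filter on low counts 16 of the list were lower, against 5.1% of all genes. Without 24 h A 1 gene was called lower (Fdps, against 1.05% of all genes). Without 24 h B no call of the list was kept, and its median log2 difference was -0.38, against -0.03 over all genes tested.

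Sterol uptake, transport and efflux held the gene that rose. Abcg1 (chromosome 17, 31057675 to 31117988), which exports sterol to lipoproteins and is a target of the LXRs, had 18.4 and 18.0 CPM in the 24 h libraries, against 10.3 and 9.16 CPM in the 0 h libraries. The groups were well apart, at 1.87-fold (log2 difference 0.90, SE 0.14, edgeR adjusted p = 0.016). Abca1, the other main exporter under LXR control, had 35.1 and 33.4 CPM at 24 h, against 33.3 and 36.8 CPM at 0 h, which overlap (log2 difference -0.03, adjusted p = 0.884). The ratio of Abcg1 to Abca1 in TPM was 0.744 and 0.763 at 24 h, against 0.439 and 0.353 at 0 h.

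The other members of that role did not pass the test. Npc2, which binds cholesterol inside lysosomes, was the most abundant per length, with 184 CPM in both 24 h libraries, against 219.7 and 195 CPM at 0 h (log2 difference -0.17). Npc1, its partner in the lysosomal membrane, had a log2 difference of -0.23, and Stard4, a soluble sterol carrier, -0.31. Nr1h2, the LXR beta receptor, had -0.49, with its 0 h libraries far apart (0.63 on the log2 scale). Mylip, an E3 ligase that degrades lipoprotein receptors and an LXR target, had 18.8 and 20.2 CPM at 24 h, against 18.6 and 16.1 CPM at 0 h, which did not overlap (log2 difference 0.17, adjusted p = 0.463).

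Of 51 other genes of these pathways tested, 4 fell, 6 rose and 41 did not pass, beside the 2.65% lower and 4.15% higher over all genes tested. Their median log2 difference was -0.10, and 0.01 without 0 h A. Most of these calls were lost when either 24 h library was left out, those of Pnpla3 and Acsl5 being kept. The 11 other known SREBP targets leaned to lower levels, with 10 negative (50.8% of all genes tested) and a median of -0.20. In 8 of them 24 h lay below 0 h without overlap, against 29.5% of all genes tested. They summed to 542 and 537 TPM at 24 h, against 736.5 and 676 TPM at 0 h, the 24 h mean being 76.4% of the 0 h mean. In CPM these 11 targets summed to 769 and 763 at 24 h, against 1078 and 949 at 0 h, most of it from Acly. Of them 2 fell, namely Pnpla3, a lipid droplet protein (7.89 and 9.19 CPM at 24 h, against 23.0 and 22.4 CPM at 0 h, log2 difference -1.41, edgeR adjusted p = 0.00568), and Acly, which makes cytosolic acetyl-CoA from citrate (459 and 446 CPM at 24 h, against 709 and 594 CPM at 0 h, log2 difference -0.53, adjusted p = 0.0411). Acss2, which makes it from acetate, had a log2 difference of -0.15. Among 9 other SREBP processing genes 1 fell, Rnf145, a sterol-responsive E3 ligase (37.5 and 39.0 CPM at 24 h, against 64.7 and 61.2 CPM at 0 h, log2 difference -0.72, adjusted p = 0.0148). The SREBP proteases Mbtps1 and Mbtps2 had -0.25 and 0.35 and did not pass. None of 5 other sterol and isoprenoid genes passed in edgeR's test, DESeq2's Wald test or limma voom, and 2 were lower at an unadjusted p under 0.05 in edgeR's. With the GC and length trend removed 2 were called lower (18.5% of all genes tested), with the replicate block 1 (8.86%), and with no filter 1 of 6 (5.1%). Their median log2 difference was -0.26, and it was -0.12 without 0 h A and -0.34 without 0 h B.

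Of 12 other sterol handling genes 4 rose (4.15% of all genes tested) and 1 fell (2.65%), with a median log2 difference of 0.43. That median was 0.08 without 24 h A, 0.19 without 0 h B and 0.22 over the 10 genes left by a filter of 1 CPM. No call of the 12 was kept when either 24 h library was left out. Soat2 and Soat1, which esterify cholesterol, had log2 differences of 0.98 (edgeR adjusted p = 0.0194) and 0.68 (adjusted p = 0.0372). Nceh1 and Lipa, which cleave cholesterol esters, had 0.59 (adjusted p = 0.03) and 0.80 (adjusted p = 0.0391). Soat2 was at 8.03 and 7.46 CPM in the 24 h libraries, against 3.95 and 3.89 CPM in the 0 h libraries, and Nceh1 at 60.7 and 60.4 CPM, against 37.9 and 42.6 CPM. The gene that fell, named after its values were seen, was Lrp8, a lipoprotein receptor (-0.57, adjusted p = 0.0495), a call lost with upper-quartile scaling, library size alone, the 1 CPM filter and voom. Of 14 other fatty acid genes 2 rose, namely Acsl5, which activates fatty acids (log2 difference 1.18, adjusted p = 0.0108), and Hacd2, a dehydratase of chain elongation (0.56, adjusted p = 0.0326), and 12 did not pass. Counts of Acsl5 and Hacd2 are uncertain, since their exons overlap an antisense gene, and so are those of Pnpla3, which overlaps a gene on its own strand.

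**Figure D5:**
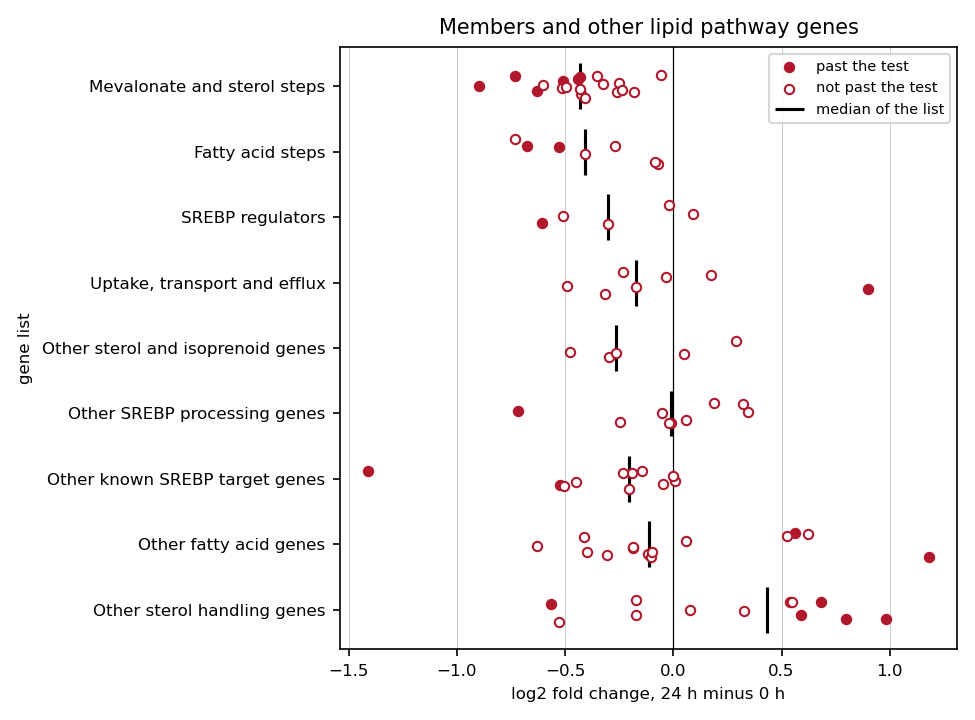
Log2 fold change (24 h minus 0 h) of every tested gene in the 4 roles and in 5 lists of other lipid genes, filled where past edgeR's test at an adjusted p under 0.05, with the list's median as a black bar. The median is -0.43 for mevalonate and sterol steps, and the 0.43 of other sterol handling genes was 0.08 without 24 h A.

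Other motifs were searched in the same windows. The sterol regulatory element core was in 1 of 37 promoters, that of Hmgcs1 shown above, against 1.21% of promoters of genes tested. The GC box GGGCGG was in 75.7% of the list's promoters, against 59.8% of those of genes tested, and the E-box CACGTG in 18.9% against 9.63%. The motif searched for KLF factors, CACACCC, was in 3 promoters (8.11%), those of Acat2, Dhcr7 and Mvk, against 8.72%, and the Dhcr7 match is in another window than the one shown. No match of one motif overlapped a match of another in these windows, and a window with no match lacks only these letters.

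Measures of the cells themselves stood as follows. Depth was 46031578 to 52412844 counts per library. Klf2, Klf4 and Klf5 had log2 differences of -0.25, -0.29 and -0.72, and none passed edgeR's test (1 had an unadjusted p under 0.05). Klf5 was called lower with DESeq2 size factors, no filter, DESeq2's Wald test and the replicate block, and both Klf4 and Klf5 with the GC and length trend removed. Leaving out 0 h A gave 0.28, -0.10 and -0.42, with Klf2 called higher and Klf5 lower, and leaving out 0 h B gave -0.63, -0.47 and -0.97, all 3 called lower. Small deletions need not lower a transcript, and protein was not analysed here. Markers of embryonic stem cells were all present, summing to 5165 and 5206 CPM at 24 h, against 5902 and 5836 CPM at 0 h. Past edgeR's test 3 of 9 fell (Utf1, Pou5f1 and Zfp42), against 2.65% of all genes tested, and 6 did not pass. Of the 9, 3 had a positive log2 difference. Feeder fibroblast markers summed to 137 and 133 CPM at 24 h, against 166 and 123 CPM at 0 h. In TPM they summed to 84.4 and 78.4 at 24 h, against 90.0 and 70.4 at 0 h. Of 9 tested, 1 was lower (Pdgfrb), 8 did not pass and 4 had a positive log2 difference. Dcn was at 0.0412 to 0.119 CPM in all 4 libraries. The part of these markers in the change of the list was not tested.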

How the data were processed

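The labels' protocols give single 50 nt reads from a stranded mRNA kit. The authors deposited 1 table of raw counts by Ensembl gene for the 4 libraries. The submitters' processing notes name TopHat2, HTSeq, DESeq and mm10 without versions, and neither the annotation release nor the strand setting is given in the sources used here. GENCODE M21 (GRCm38, the same assembly as mm10) gave symbols, exons and GC content, and lacked 563 identifiers with 0.107% of counts. Of the 45706 genes, 19033 had 0 counts throughout.

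Genes were kept by edgeR's filterByExpr (minimum count 10, minimum total 15). The 2-sided comparison used the quasi-likelihood test of edgeR 4.0.16 (glmQLFit in its legacy mode) after TMM scaling, in R 4.3.3, with Benjamini-Hochberg adjustment over 18005 genes and a threshold of 0.05. CPM (TMM-scaled) and TPM (on the union of annotated exons) were computed here from the deposited counts. A count of 0 still allows a level of 3 counts, which is 0.0572 to 0.0652 CPM by library (counting error only). The p-values rest on the spread between 2 biological replicates per group, pooled over genes. The fit has no block for the replicate letter, since no label ties a letter to a shared clone.

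The 38 genes and the other lists were chosen with earlier results of these data known. Values in every library are given for the genes of the list past the test and for the most abundant of each role. Of the other lists, up to 4 genes past the test are named in order of p. Of these lists 3 genes are not reported here, and Faxdc2 had no match. Spring1 was matched by a synonym. Alternatives covered scaling, filters, DESeq2 1.42.0, limma voom 3.58.1, the replicate letter as a block, offsets for GC content and length (mgcv 1.9.3), and each library left out.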

Additional observations from a re-analysis of the deposited data

How the results depend on the processing

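Scaling by DESeq2 size factors, a filter of 1 CPM in 2 libraries, DESeq2's Wald test, no filter, the block, the GC and length offsets and leaving out either 0 h library each kept all 10 genes that had passed the test, and upper-quartile scaling, library size alone and limma voom kept 7. The count of genes lower was 16 with no filter, 29 with the GC and length trend removed and 31 with that and the replicate block (23% of all genes), and it ranged from 0 to 30 when 1 library was left out. The count of genes higher was 2 with the GC and length trend removed and the replicate block, and it ranged from 0 to 3 when 1 library was left out. The cause of these shifts was not tested. The median log2 difference of the 38 genes was -0.32 with library size alone, where the median of all genes was 0.05, and it ranged from -0.39 to -0.29 when 1 library was left out.

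Over all genes, 2589 were called with no filter, 1994 with DESeq2's Wald test, 5197 with the GC and length trend removed (1870 higher and 3327 lower, against 748 higher and 477 lower in the fit reported), 6497 with that and the replicate block, and 506 to 9416 when 1 library was left out. Deviations from the group means correlated at 0.0616 between libraries of the same letter over 18005 genes. With 2 libraries per group the crossed value is fixed as its negative, so this cannot settle whether the letters pair the libraries. The replicate block called 3253 genes over all and 16 of the list lower, against 8.86% of all genes. The sign of the fold change was kept under every alternative for 33 of 38 genes, the exceptions being Acat2, Elovl6, Scap, Insig2 and Abca1, and under every scaling for all but Scap and Abca1. Low counts limit Idi1, at 1.75 to 2.69 CPM.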
